A study of Mus musculus with 10 samples.

Results

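Fos, Fosb, Jun, Junb, Egr1, Egr2, Egr3, Arc, Npas4 and Nr4a1 are immediate early genes of neurons, and their occupancy by REST was examined in the peak lists of WT and 3xTg mouse cortex. The 10 genes were taken by symbol from the curated RefSeq annotation of mm10, which holds 26089 genes. A peak was linked to a gene when it overlapped the gene body or lay within 5 kb of a start site. Of the 10 genes, 2 had a peak in the WT list (Jun and Npas4) and 3 had a peak in the 3xTg list (Fosb, Jun and Npas4), while 7 had none in either list. In all, 9.3% of genes had a WT peak and 14.2% had a 3xTg peak under the same rule.

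Immediate early genes are transcribed within minutes of synaptic activity, without new protein synthesis, through transcription factors such as CREB, SRF and MEF2 that are already present and are modified by calcium and kinase signals. Most of their products are transcription factors that go on to switch later genes, and Arc acts at the synapse. REST is a zinc finger repressor that binds a long DNA element named RE1 and recruits corepressors to it, and it is best known for holding neuronal genes silent outside neurons.

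REST ChIP-seq was performed on bulk cortex of female mice at 11 months of age. WT mice were littermate controls of 3xTg mice, an Alzheimer's disease model that carries mutant human APP (APPSwe) and tau (tauP301L) transgenes and a PS1 knock-in mutation, kept on a hybrid of C57BL/6J with 129Sv/Ev. Each genotype had 4 ChIP replicates, each pooling 4 cortices, and 1 input library. The authors deposited 1 list per genotype that pools the replicates, with 3006 WT and 5077 3xTg peaks once 4 and 9 peaks on chromosome Y were left out. No value of a peak in them therefore has a replicate spread, no test between genotypes was possible from these lists, and the number of reads behind the lists is not known from the files. Because the tissue is bulk cortex, fewer bound cells and less REST per cell cannot be told apart. The measure of height was the fold enrichment that the peak caller gives at the summit, a ratio over the local background. The lists end at different heights. The lowest fold enrichment was 6.0 in WT and 8.50 in 3xTg, so a gene without a 3xTg peak may still hold enrichment that would have entered the WT list.

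Npas4, an activity-induced transcription factor of neurons that answers to calcium influx, carried the highest REST peaks of the 10 genes. Npas4 lies at chr19:4984354-4989971 on the minus strand and has 8 exons. In the WT list its main peak, chr19:4987793-4990115, had a fold enrichment of 53.7 and a −log10 q of 410, which ranked 5 of 3006 by fold enrichment. In the 3xTg list the peak chr19:4987727-4993531 had a fold enrichment of 55.8 and a −log10 q of 490, and ranked 14 of 5077. Both peaks covered the start site, and both summits lay in the first intron, at 783 bases (WT) and 813 bases (3xTg) downstream of the start site, 30 bases apart. Only 3 of the 2426 genes with a WT peak and 11 of the 3706 genes with a 3xTg peak had a higher linked peak.

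**Figure D1:**
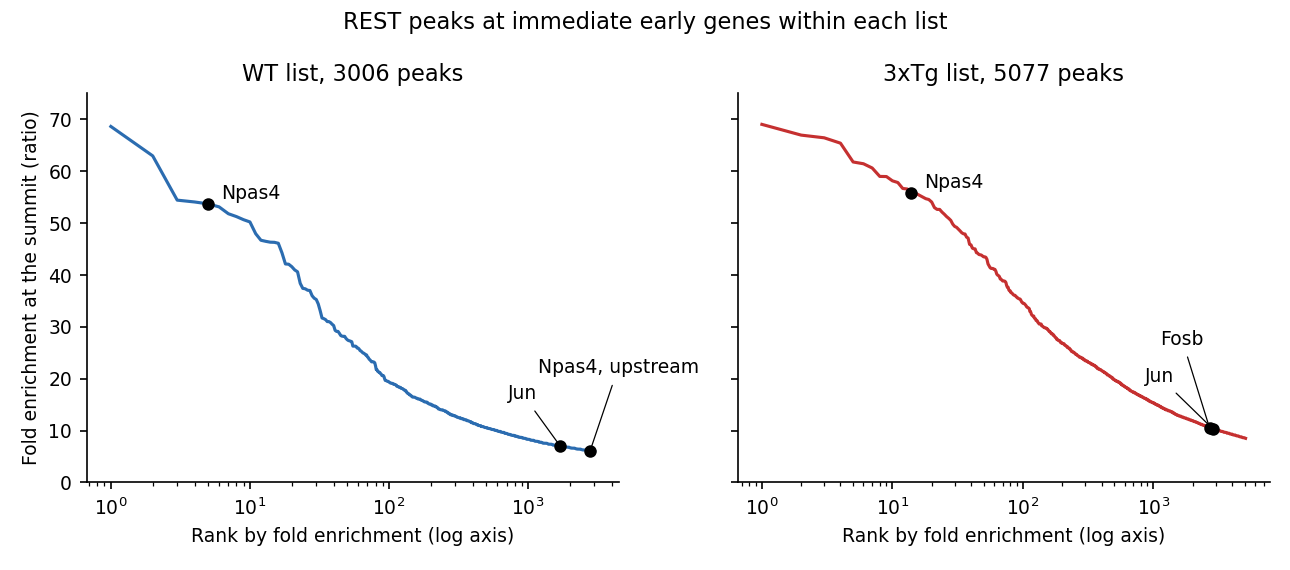
Fold enrichment at the summit (ratio) against rank (log axis) for all peaks of the WT list (left) and of the 3xTg list (right), with the peaks linked to the 10 immediate early genes as black points. The main Npas4 peak sits near the top of both lists, at ranks 5 and 14, and the peaks of Jun and Fosb sit past the middle of their lists, between 52.9% and 56.7% of the way down. The second WT peak of Npas4, marked upstream, is near the end of its list at rank 2791.

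The WT list held a second Npas4 peak upstream of the gene, and the 3xTg list did not separate it. This peak, chr19:4992459-4993228, had its summit 2608 bases upstream of the start site and a fold enrichment of 6.05, close to the lowest value of its list, at rank 2791 with 169 peaks of the same value. The gap between the WT peaks was 2343 bases. The 3xTg peak was 5805 bases wide, the widest of all 5077, and covered both WT peaks whole. The main WT peak, at 2323 bases, was 15th by width in its list. Since the 3xTg entry has 1 summit, the height at the upstream site in 3xTg is not given by its fold enrichment.

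The stretch of the first intron under both summits is shown because it holds 4 RE1 sites, here placements of the 20-position RE1 consensus with at most 5 mismatches on either strand. The intron spans 754 bases, chr19:4988888-4989641. Its 300 bases at chr19:4989041-4989340 (mm10, minus strand, the direction of transcription) are given with the RE1 sites in capitals. The upstream site follows with the 60 bases at chr19:4992532-4992591, also on the minus strand; the RE1 site in it lies on the plus strand and so reads in reverse complement.
Npas4 first intron: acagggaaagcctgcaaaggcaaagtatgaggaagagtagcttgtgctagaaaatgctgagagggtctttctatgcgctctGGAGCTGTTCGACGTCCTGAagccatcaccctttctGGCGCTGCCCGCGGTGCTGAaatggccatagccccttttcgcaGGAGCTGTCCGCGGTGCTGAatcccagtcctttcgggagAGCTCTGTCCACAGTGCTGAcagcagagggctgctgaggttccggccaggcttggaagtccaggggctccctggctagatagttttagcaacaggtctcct
Npas4 upstream site: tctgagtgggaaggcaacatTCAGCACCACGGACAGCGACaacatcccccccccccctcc

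The 6 sites of the 3xTg peak differ in how closely they follow the consensus, and each is given in its own 5′ to 3′ direction with the matching bases in capitals. They are ordered along the gene, from the upstream site through the 4 intron sites to the coding exon.
Upstream, chr19:4992552-4992571, plus strand, 2 mismatches: GtCGCTGTCCgTGGTGCTGA
Intron site nearest the start site, chr19:4989240-4989259, minus strand, 5 mismatches: GGAGCTGTtCgacGTcCTGA
Next intron site, chr19:4989204-4989223, minus strand, 3 mismatches: GGCGCTGcCCgcGGTGCTGA
Intron site under the summits, chr19:4989161-4989180, minus strand, 2 mismatches: GGAGCTGTCCgcGGTGCTGA
Last intron site, chr19:4989122-4989141, minus strand, 4 mismatches: aGCtCTGTCCAcaGTGCTGA
Coding exon, chr19:4988144-4988163, minus strand, 5 mismatches: GGCcCTGgCCcTGGTcCTGc

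The closest match lay under the summits. The intron site with 2 mismatches was centred 17 bases from the WT summit and 13 bases from the 3xTg summit, and the upstream site, also with 2 mismatches, was centred 17 bases from the summit of the second WT peak. The site in the coding exon lay over 1000 bases from both summits, at 1034 and 1004 bases. An RE1 site was present in 7.09% of all WT peaks and 6.09% of all 3xTg peaks. At least 5 sites were present in 4 of the 3006 WT peaks (0.133%) and 5 of the 5077 3xTg peaks, among them the Npas4 peaks with 5 and 6 sites. These counts were not adjusted for width, and a wider peak has more room for sites. The Npas4 peaks were 2323 (WT) and 5805 bases (3xTg) wide, against medians of 611.5 and 937 over the lists. Within 5 kb of a start site, 88 genes (0.337%) had a site with at most 2 mismatches, as Npas4 did. Of these 88 genes, 31 (35.2%) had a WT peak within 5 kb of a start site and 40 (45.5%) had a 3xTg peak, against 6.63% and 9.75% of the other genes.

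**Figure D2:**
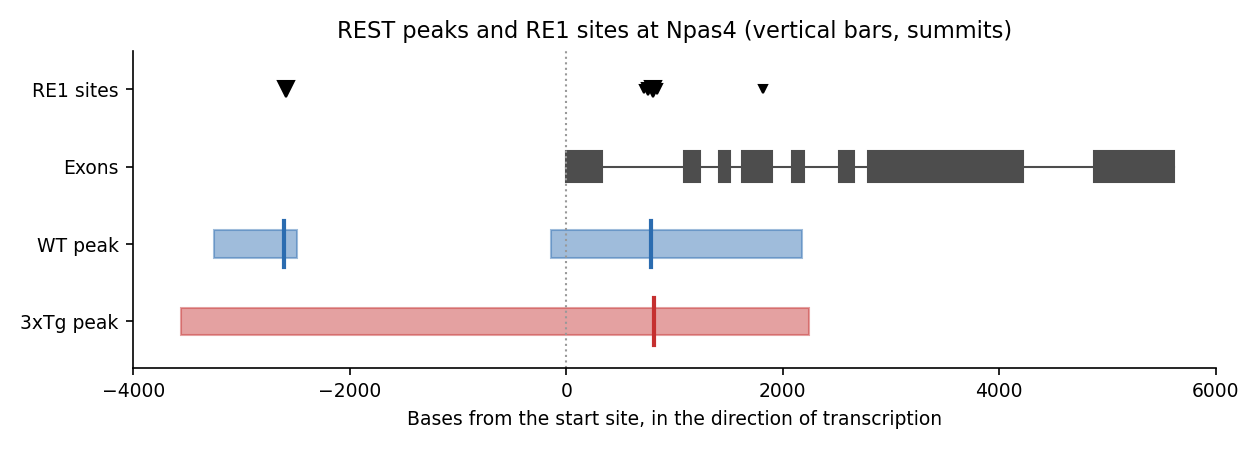
Map of Npas4 in bases from the start site, in the direction of transcription, with exons (dark boxes), the WT peaks (blue), the 3xTg peak (red), their summits (vertical bars) and RE1 sites (triangles, larger for fewer mismatches). The 4 sites in the first intron overlap on this scale and sit at the summits of both lists, and the single 3xTg peak spans both WT peaks.

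The promoter of Npas4 lay in part inside the peaks, and it is shown because its motifs are of another kind. Of the RefSeq promoter window of mm10, which reaches from 250 bases before to 50 bases after the start site, 194 of 300 bases were inside the WT peak and all 300 inside the 3xTg peak. The 250 bases upstream, chr19:4989972-4990221 on the minus strand, are given with TGACG, the short form of the cAMP response element that CREB binds, and the GC box GGGCGG in capitals, each on either strand.
Npas4 promoter: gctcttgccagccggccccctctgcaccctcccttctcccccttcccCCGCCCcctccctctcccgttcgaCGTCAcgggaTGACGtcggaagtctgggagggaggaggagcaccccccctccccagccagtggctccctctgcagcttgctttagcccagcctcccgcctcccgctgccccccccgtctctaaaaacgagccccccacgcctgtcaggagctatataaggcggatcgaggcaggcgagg
This window held TGACG at 2 places, 179 and 169 bases upstream of the start site, and 1 GC box at 203 bases upstream.

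Jun, a subunit of the AP-1 transcription factor, had 1 peak in each list, of middling height. Jun is a gene of 1 exon at chr4:95049036-95052222 on the minus strand. The WT peak, chr4:95052486-95053494, had a fold enrichment of 7.0 and a −log10 q of 17.8, and ranked 1704 of 3006 (92 peaks had this value). It began 264 bases upstream of the start site, with its summit 519 bases upstream. The 3xTg peak, chr4:95051222-95053739, had a fold enrichment of 10.4 and a −log10 q of 39.6, and ranked 2844 of 5077 (76 peaks had this value). Its summit lay 151 bases upstream, and the peak covered the start site and the whole WT peak. At 56.7% and 56.0% of the way down the lists, the peak had nearly the same relative rank in both.

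No RE1 site was found in the Jun peaks. The best placement had 8 mismatches in the WT peak and 7 in the 3xTg peak, and 41.7% of all WT peaks and 51.0% of all 3xTg peaks held one with at most 7. The WT placement, chr4:95052603-95052622 on the minus strand, is set here against the Npas4 sites above, with its matching bases in capitals.
Jun best placement: GtCcCaGTCCccaGccCTGA
The 200 bases around the summits were GC-rich, at 66.0% GC in WT and 65.0% in 3xTg, against medians of 49.0% and 47.0% over all peaks of the lists. The ratio of observed to expected CpG was 0.932 and 0.686, against medians of 0.379 and 0.316. The Jun promoter, chr4:95052223-95052472 on the minus strand, lay inside the 3xTg peak and outside the WT peak. Capitals mark its GC box, 89 bases upstream of the start site; TGACG was not in this window.
Jun promoter: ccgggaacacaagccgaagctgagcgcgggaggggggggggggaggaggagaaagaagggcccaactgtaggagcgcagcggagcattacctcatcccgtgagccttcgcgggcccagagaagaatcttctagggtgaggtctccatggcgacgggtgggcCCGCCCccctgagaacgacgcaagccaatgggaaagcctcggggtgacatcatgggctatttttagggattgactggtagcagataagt

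Fosb, a partner of Jun in AP-1 whose truncated form builds up in neurons with repeated activity, had a peak in the 3xTg list alone. In all, 6.42% of genes had a 3xTg peak and no WT peak, and 7.78% had both. The Fosb peak, chr7:19307905-19309083, lay in the gene (chr7:19302696-19310045, minus strand), with its summit in an intron 1351 bases downstream of the start site. Its fold enrichment was 10.5 and its −log10 q was 46.8, at rank 2688 of 5077 (52.9%). The nearest WT peak was 170879 bases from the gene body. A second 3xTg peak, chr7:19300548-19301697, with a fold enrichment of 11.1, lay 999 bases past the 3′ end of Fosb and 8348 bases from its start site, just outside the rule. Both values lie above 6.0, the lowest of the WT list, as every 3xTg peak does, since the 3xTg list ends at 8.50. Of all 3xTg peaks, 49.0% overlapped a WT peak. Why Fosb had no WT peak was not tested.

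The summit of the Fosb peak is shown because its sequence had the highest CpG ratio among the linked peaks. The 200 bases around it had 67.5% GC and a CpG ratio of 1.10, higher than in 98.2% of 3xTg peaks. They held TGACG at 3 places and the GC box at 3 places; at least 1 copy of each was present in 11.7% and 16.9% of the same windows over all 3xTg peaks. The central 150 bases, chr7:19308619-19308768 on the minus strand, are given with both motifs in capitals, and adjoining or overlapping copies run together. Not all copies of TGACG in the 200 bases fall within this shorter stretch.
Fosb summit: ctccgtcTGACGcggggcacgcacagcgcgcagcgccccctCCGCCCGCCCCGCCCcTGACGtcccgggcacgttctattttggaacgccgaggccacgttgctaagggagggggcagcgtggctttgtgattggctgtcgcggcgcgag
The best RE1 placement in the Fosb peak, chr7:19308518-19308537 on the plus strand, had 8 mismatches, and it is given with its matching bases in capitals.
Fosb best placement: ctAGCTcTCCcTctTGgaGA

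**Figure D3:**
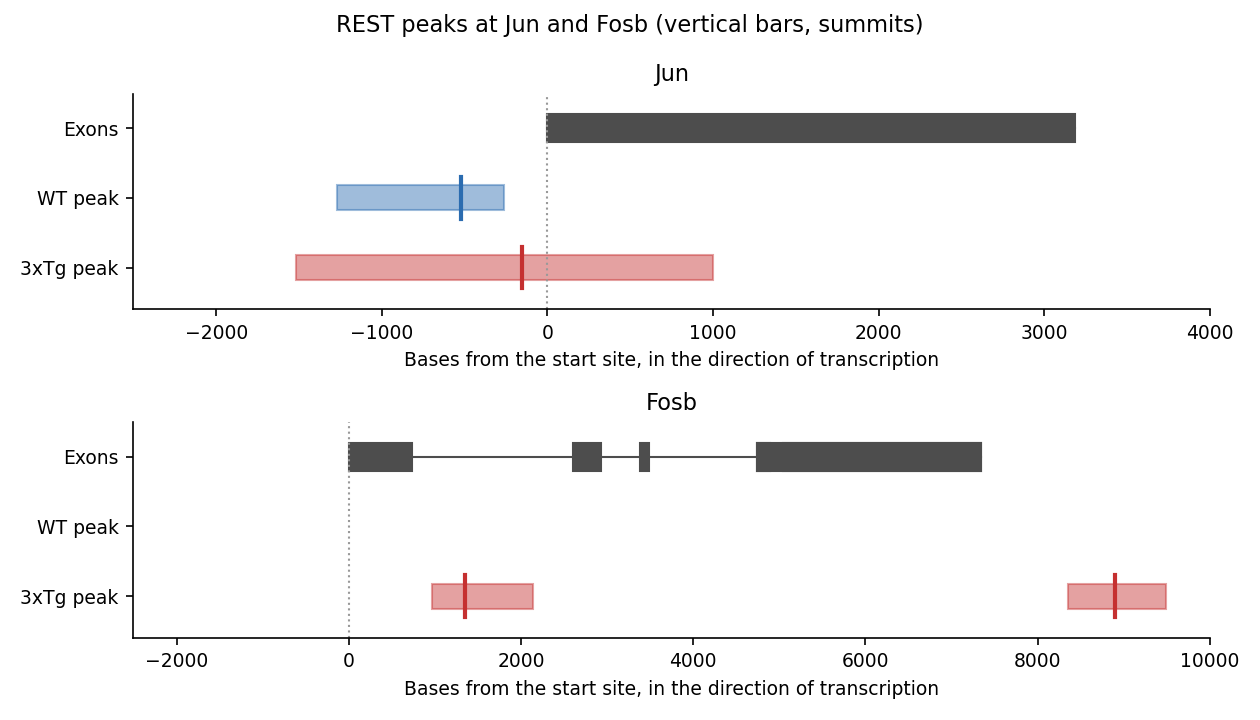
Maps of Jun (top) and Fosb (bottom) in bases from the start site, in the direction of transcription, with exons (dark boxes), WT peaks (blue), 3xTg peaks (red) and summits (vertical bars). The Jun peaks overlap with summits 368 bases apart, and Fosb has a 3xTg peak in its body and another past its 3′ end, with no WT peak in the drawn region.

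The peaks that the lists share were compared in size. The 3xTg peak was 2.50 times as wide as the WT peak at Jun, and also 2.50 times as wide as the main WT peak at Npas4. Over the 2504 WT peaks with an overlapping 3xTg peak the median ratio of widths was 1.66. The fold enrichment in 3xTg was 1.48 times that in WT at Jun and 1.04 times at the main Npas4 peak. Over the same 2504 pairs the median ratio of fold enrichment was 1.70, and 99.5% of pairs had a ratio over 1. Of the 3006 WT peaks, 950 reached 8.50, the lowest value of the 3xTg list. For a shared WT peak below 8.50 a ratio over 1 was fixed by that limit, so these shares do not measure a general gain in 3xTg. A lower ratio than at Jun was found in 23.7% of pairs, and a lower ratio than at the main Npas4 peak in 0.679%. At Jun the WT value lies below 8.50, the lowest of the 3xTg list, so a higher value in 3xTg was fixed by that limit. Npas4 lies far above the limit of both lists, and in the 20 highest WT peaks, all of them shared, the median ratio was 1.18, with 4 peaks below Npas4. These ratios compare values of separately pooled lists and have no error.

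Fos, the partner of Jun in AP-1, had no linked peak in either list. Its nearest 3xTg peak, chr12:85483091-85483665, had a fold enrichment of 9.34 at rank 3861 and lay 9201 bases from the start site and 5817 bases past the 3′ end. The nearest WT peak was 107312 bases away. Junb, another AP-1 subunit, had no peak closer than 30961 bases (WT) or 30727 bases (3xTg). Those peaks were high, with fold enrichments of 14.2 (rank 228) and 25.2 (rank 238), but their summits lay 340 and 337 bases from the start site of Rtbdn, in an intron of that gene.

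The Egr genes, which encode zinc finger transcription factors, were all without a linked peak. Egr2 was the nearest to a peak, with summits that lay close to the start site of the neighbouring gene Ado, at 494 bases (WT) and 294 bases (3xTg). These peaks began 6900 and 6851 bases past the 3′ end of Egr2, with fold enrichments of 7.56 and 11.4. The distance from a start site to the nearest peak was 304425 bases (WT) and 101064 bases (3xTg) for Egr1. For Egr3 it was 489032 and 55498 bases.

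Arc, whose product takes part in glutamate receptor trafficking at the synapse, was far from any peak in both lists, at 229831 bases (WT) and 228256 bases (3xTg). Nr4a1, an orphan nuclear receptor, had its nearest WT peak 20101 bases upstream, with a fold enrichment of 6.24, while the nearest 3xTg peak was 304850 bases away. The WT peak near Nr4a1 lies below 8.50, the lowest fold enrichment of the 3xTg list, so its absence there and the higher limit of that list cannot be told apart. The start site of the median gene lay 216530 bases from a WT peak and 131063 bases from a 3xTg peak, against medians of 69136.5 and 20918 bases over the 10 genes.

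**Figure D4:**
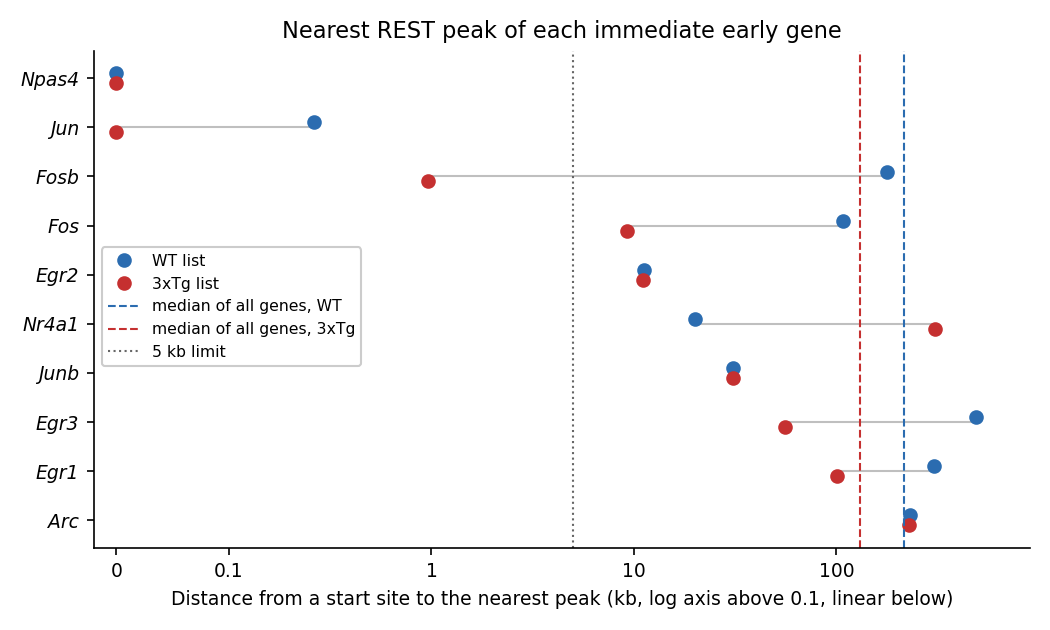
Distance from a start site to the nearest peak of the WT list (blue) and of the 3xTg list (red) for each of the 10 genes, in kb, on an axis that is logarithmic above 0.1 kb and linear below. Dashed lines are the medians of all 26089 genes and the dotted line is the 5 kb limit. Npas4, Jun and Fosb lie left of the limit in 3xTg, Npas4 and Jun in WT, and Arc lies right of the median of all genes in both lists.

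With at most 5 mismatches, 3 of the 10 genes (Npas4, Fosb and Junb) had an RE1 site near a start site. The best placement within 5 kb of a start site had 5 mismatches at Fosb and Junb, and 21.8% of all genes had 5 or fewer. It had 6 at Jun, Egr1, Egr2, Arc and Nr4a1, a number reached by 73.6% of genes, and 7 at Fos and Egr3. The sites with 5 mismatches at Fosb and Junb were not in a linked peak. Of the 5688 genes with at most 5 mismatches, 7.96% had a WT peak within 5 kb of a start site and 11.9% a 3xTg peak, against 6.38% and 9.31% of the rest.

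The promoters were searched for motifs known from activity-dependent transcription, from 250 bases before to 50 bases after each start site. Sequence outside this window was not searched, so a motif absent here may still lie farther from the start site. RefSeq promoters were at hand for 7 of the 10 genes (11 promoters, 6 genes with 1 promoter and Egr2 with 5); Egr1, Egr3 and Arc had no entry. Motifs are counted per gene for these genes, over all its promoters, and per promoter for all promoters, so the 2 are not shares of the same kind. TGACG was present at 6 of the 7 genes (Egr2, Fos, Fosb, Junb, Npas4 and Nr4a1) and in 20.8% of all 32851 promoters. The GC box was present at 6 of the 7 (all but Junb) and in 35.7% of all promoters. The full cAMP response element TGACGTCA was at none of the 7, and in 1.79% of all promoters. The serum response element, the SRF site, was found in this window at Egr2 only (1.63% of all promoters), the gene with 5 promoters searched. The letters of the TATA box, TATAAA, were found at Fos and Junb (13.6%). Their first base lay 33 bases upstream of the start site at Fos, but on the start site itself at Junb. Of the EGR sites, GCGGGGGCG was found at Fosb and Nr4a1 (2.91%), and it can overlap a GC box, while GCGTGGGCG was at none (0.612%). The AP-1 site in the form TGANTCA was at none of the 7 (7.81%), and other forms of it were not searched for. All motifs were read on both strands, and Jun and Npas4 were the only genes of the 7 whose promoter overlapped a peak.

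Further lists of activity genes were read the same way, and they describe the surroundings of the 10 genes. These lists were chosen with earlier results of these data known, and no enrichment of a list was tested. Among 18 other immediate early transcription factors, 2 had a WT peak (11.1%) and 4 a 3xTg peak (22.2%), beside 9.3% and 14.2% of all genes. Klf10 led with a fold enrichment of 14.0 in WT and 20.2 in 3xTg. Klf6 (10.4), Egr4 (9.84) and Ier2 (8.94) had a 3xTg peak alone, as did 6.42% of all genes. Btg2 had a WT peak alone, at 6.24, which is below the lowest value of the 3xTg list.

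Among 23 regulators that act on immediate early genes, 6 had a WT peak (26.1%) and 11 a 3xTg peak (47.8%), and all 6 were among the 11. The shares of all genes were 9.3% and 14.2%. Several of these genes were linked only by a peak in an intron, far from a start site. With start sites alone the counts were 3 and 5 of 23, beside 6.72% and 9.87% of all genes. Ep300, a coactivator that acetylates histones, had fold enrichments of 21.0 in WT and 35.2 in 3xTg, with summits 4833 and 4819 bases downstream of the start site. The highest intron peak of Camk4, a calcium-dependent kinase that acts on CREB, had 8.44 and 25.7, and that of Mef2c had 7.56 and 16.6. Crem (8.51 and 14.6) and Mef2a (6.11 and 14.5) had peaks near a start site in both lists. The WT values of Camk4, Mef2c and Mef2a lie below 8.50, the lowest of the 3xTg list, so higher 3xTg values were fixed. Over all shared pairs the median ratio of 3xTg to WT fold enrichment was 1.70, and 99.5% of pairs had a ratio over 1. These values include all shared pairs whose ratio over 1 was fixed by the same limit. Arnt2, which pairs with NPAS4, had 2 peaks in the 3xTg list and none in WT, the higher in an intron (16.2). Creb1 and Srf had no peak in either list.

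Among 24 activity-induced effectors, 9 had a WT peak (37.5%) and 10 a 3xTg peak (41.7%), beside 9.3% and 14.2% of all genes. With start sites alone the counts were 9 and 9 of 24, beside 6.72% and 9.87% of all genes. Gadd45b, a gene of DNA demethylation and stress responses, had 30.5 in WT (rank 39) and 45.04 in 3xTg (rank 43). Vgf, which encodes a secreted neuropeptide precursor, had 28.2 (rank 46) and 43.4 (rank 52), with summits 5 and 6 bases from the start site. Per1 had 13.5 and 23.2, Dusp6 had 6.11 and 16.2, and Gadd45g had 10.2 and 14.8. The WT value of Dusp6 lies below the lowest of the 3xTg list, so its higher 3xTg value was fixed by that limit. The median ratio over all shared pairs was 1.70, which includes the pairs fixed by the same limit. Rheb had a 3xTg peak alone (10.9), as did 2 further genes of the list and 6.42% of all genes. Rgs2 (6.68) and Tiparp (7.19) had a WT peak alone, both below the lowest value of the 3xTg list. The main Npas4 peak was higher than any of these in both lists.

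**Figure D5:**
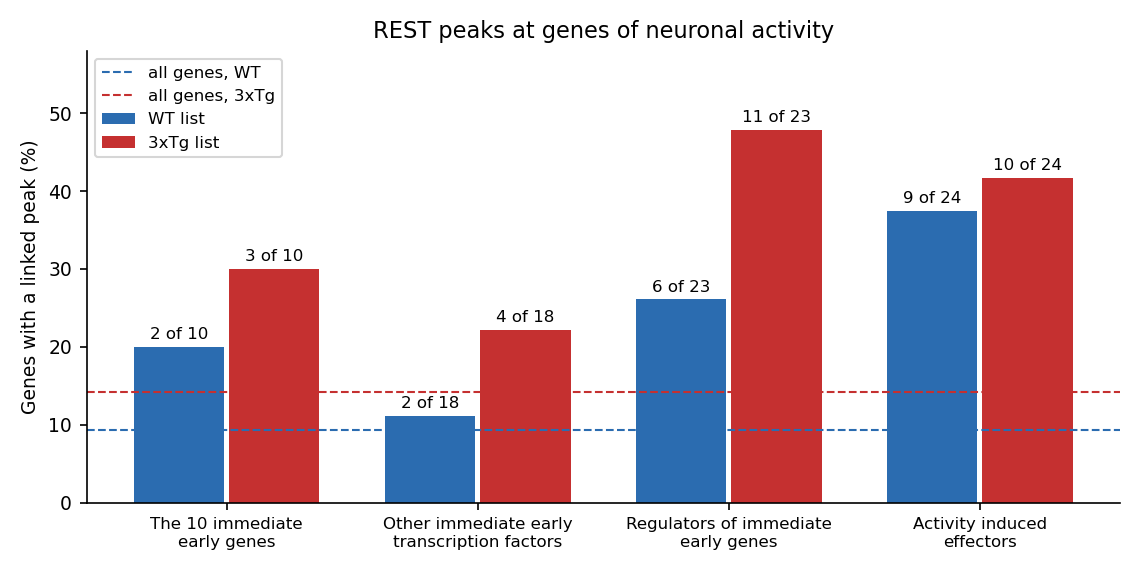
Share of genes with a linked peak (%, bars from 0) in the WT list (blue) and the 3xTg list (red) for the 10 genes and the further lists, with the number of genes above each bar and dashed lines for all 26089 genes. Shares run from 11.1% to 37.5% in WT and from 22.2% to 47.8% in 3xTg, beside 9.3% and 14.2% of all genes. The lists were chosen with earlier results of these data known, and no enrichment was tested.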

How the data were processed

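REST ChIP-seq libraries (single-end reads) were aligned to mm10 with STAR and peaks were called with MACS, according to the study's methods; the submitters' processing notes name BWA for 6 samples and STAR 2.7.0a for 4. The control library of the peak caller is not given in the sources used here. The authors state that peaks had to exceed 5 in fold enrichment with q below 0.01, and that ENCODE blacklist regions were removed. All deposited peaks pass this filter, but the lists end above it, at 6.0 and 8.50, and the reason is not given in the sources used here. In the deposited lists each peak has a score (the −log10 q scaled to a whole number), a fold enrichment (a ratio), −log10 values of p and q, and a summit. The p-values and the score deposited by the authors were not used. Depth is not known from these files.

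Peaks outside chromosome Y were linked to curated RefSeq transcripts, with 1 base of overlap as the minimum, and ranked by fold enrichment (1 is highest). RE1 placements were scored over 20 positions on both strands. Python 3.11.15, numpy 2.4.6, pandas 2.3.3, pysam 0.24.0 and bedtools 2.31.1 were used. The programs were tested on simulated data, and 200 of 200 planted RE1 sites were recovered. The genes, lists and motifs were chosen with earlier results of these data known. All 10 genes were described, with up to 6 genes of each further list by fold enrichment in 3xTg; Btg2, Creb1, Srf, Rgs2 and Tiparp were named after their values were seen. Reach, thresholds, overlap and RE1 limits were varied.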

Additional observations from a re-analysis of the deposited data

How the results depend on the processing

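Jun in WT was the least settled result. With gene bodies alone, with a fold enrichment over 10, and with the lowest 3xTg value (8.50) as a common limit on both lists, which was chosen after seeing the data and left 950 WT peaks, only 1 of the 10 genes (Npas4) had a WT peak, and 1 had a peak in both lists. A fold enrichment over 10 left 1.91% of all genes with a WT peak and 9.41% with a 3xTg peak, the common limit left 3.01% with a WT peak, and as many 3xTg peaks as WT peaks left 8.82% with a 3xTg peak. When an overlap of 50% of both peaks was asked for, the shared peaks at these genes fell from 3 to 0 (WT) and from 2 to 0 (3xTg), since the WT peaks make up 40.1% (Jun), 40.02% and 13.3% (Npas4) of their wider 3xTg counterparts. With start sites within 10 kb, Fos joined Fosb, Jun and Npas4 in 3xTg, for a count of 4. The 3 genes with a 3xTg peak were found under every alternative tried, and the counts of peaks with an RE1 site were the same with at most 4 or 6 mismatches and in 200 bases around the summit.

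No paired analysis was possible because each list pools the 4 replicates of a genotype, which also means that no replicate was left out in turn. The lists carry no error for any peak, their read numbers are not known from the files, and absence from a list means only that no peak passed its limits.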
